A study of Danio rerio with 186 samples.

Results

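Voltage-gated channels and potassium channels set the membrane voltage of an endocrine cell and decide when calcium enters it. In the vertebrate beta cell, ATP made from glucose closes ATP-sensitive potassium channels, the membrane depolarises, voltage-gated sodium and calcium channels open, and the calcium that enters releases hormone; other potassium channels bring the voltage back down. Delta cells, which secrete somatostatin, are also electrically excitable. The genes described here are the zebrafish channel genes of these families that were measurable in single pancreatic endocrine cells. They were chosen by name and level. A gene row was taken if its symbol began with cacna, cacnb, cacng, kcn or scn followed by a digit, and if it reached 10 CPM (reads of the gene for each 1000000 gene reads) in at least 1 of the 4 pools of cells. Of 31953 gene rows, 156 matched the names and 30 reached that level; another 41 had 1 to 10 CPM in their highest pool, 32 had reads but stayed under 1 CPM, and 53 had no read at all. The levels themselves chose the members, so the levels and the counts over members are a description.

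All cells came from the pancreas of zebrafish at 30 days post-fertilisation, under normal growth, that carried the transgenes Tg(ins:BB1.0L) and TgBAC(sst1.1:memEGFP), an insulin-promoter reporter and a membrane EGFP driven from the sst1.1 somatostatin locus. Single cells were sorted by fluorescence into lysis buffer and sequenced by Smart-Seq2, a full-length mRNA method, in 3 gates: ins+ (beta cells), sst1.1+ (somatostatin cells) and sst1.1+ ins+ (called double-positive here). A number in the sample titles, read here as the plate, puts ins+ and double-positive cells on plate 3 and ins+ and sst1.1+ cells on plate 4. The labels name no animals. A gate on a plate is therefore treated as 1 pool and 1 sample, cells are not replicates, no test between pools was possible, and differences are given as ratios. A gate was repeated only for ins+ cells, and double-positive cells were never on a plate with sst1.1+ cells, so gate and plate cannot be told apart between them.

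After low-content cells were left out, 174 of 186 cells remained: 32 ins+ and 57 double-positive cells on plate 3, and 24 ins+ and 61 sst1.1+ cells on plate 4, with 84778 to 895868 gene reads per cell. Summed over pools, the hormone genes followed the gates: the beta-cell markers stood at 400999 and 371986 CPM in the ins+ pools against 3421 CPM in sst1.1+ cells. The delta-cell markers stood at 15452.5 and 10283 CPM against 289412 CPM. Double-positive cells lay between, at 219412 and 165353 CPM. Single cells departed from their pool. Delta-cell markers, which include sst1.2 and sst2, reached 238493 and 208022 CPM in the highest ins+ cells, against medians of 271 and 296 CPM. An ins+ cell of plate 3 held 164191 CPM of sst1.2 and 73886.8 CPM of sst2, but 113 CPM of sst1.1. The hormones of their gate, ins at 5% or more of reads and sst1.1 below that, were found in 32 of 32 and 23 of 24 ins+ cells. Of 57 double-positive cells, 45 held both ins and sst1.1 at 5% or more of their reads. The sums of other markers differed between the gates too. On plate 4, sst1.1+ against ins+ cells, the alpha-cell markers stood at 26242 against 8500.5 CPM, the epsilon and PP markers at 1559 against 131 CPM and the duct markers at 592 against 144 CPM. On plate 3 the alpha-cell markers stood at 8834 CPM in double-positive and 2667 CPM in ins+ cells. The median cell went the other way for the alpha-cell markers. It was at 31.3 CPM in sst1.1+ against 529 CPM in ins+ cells of plate 4. On plate 3 it was at 395 CPM in double-positive against 463 CPM in ins+ cells. The highest sst1.1+ and double-positive cells reached 314301 and 157176 CPM. Leaving out cells with over 5% of their reads in other hormones, which kept 46 of 61 sst1.1+, 23 of 24 and 29 of 32 ins+, and 50 of 57 double-positive cells, kept 13 of the 14 channel calls of plate 4 and 12 of the 13 of plate 3 described below. The part of the duct markers in the results was not tested. Double-positive cells had more detected genes per cell than the other pools (median 4999, against 2564, 2746.5 and 3616). For some genes, shares of cells are therefore also given after each cell was thinned to 100000 reads. Numbers of cells given without thinning come from all reads and carry this difference between pools. Intervals beside CPM, ratios and shares are 95% exact intervals. Those of CPM and ratios treat reads as independent counts and leave out the spread between cells. The reads carry no molecular identifiers, so amplified copies cannot be told apart and these intervals can be too narrow. Those of shares treat cells as independent. None covers the spread between animals or pools. One read was worth 0.0293 to 0.0797 CPM in a pool, and a cell counted as having a gene when it held 5 or more of its reads. Neurons and muscle also use many of these channels. Of 9 neuron markers, chata, phox2bb, stmn2b and gap43 had 0 reads in every pool. Others were present: 2 of the 9 reached 10 CPM in each ins+ pool and in double-positive cells, and 4 in sst1.1+ cells. The list summed to 100.3 and 87.2 CPM in the ins+ pools, 125 CPM in double-positive and 176 CPM in sst1.1+ cells. The 10 muscle markers summed to 2.22 to 4.06 CPM.

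The threshold fell among genes that differ little. Just inside it were kcnc1a (highest pool 11.1 CPM), kcnd2 and kcnj9 (12.3 CPM each); just outside were kcnc3a (9.98 CPM), kcnc4 (9.96 CPM) and cacna1c (9.68 CPM). By role, the 30 members were 6 of 18 calcium channel pore genes, 1 of 7 alpha2delta, 2 of 7 beta and 1 of 16 gamma calcium channel genes, 3 of 7 sodium pore and 2 of 6 sodium beta genes, 4 of 22 inward rectifiers, 3 of 17 leak channels with a pair of pore domains per subunit, 2 of 8 calcium- or sodium-activated potassium channels, 5 of 40 voltage-gated potassium pore genes and 1 of 8 auxiliary potassium channel genes. In the ins+ pool of plate 3, 20 of the 30 reached 10 CPM by themselves; the other pools had 18 (double-positive), 17 (ins+, plate 4) and 21 (sst1.1+).

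**Figure D1:**
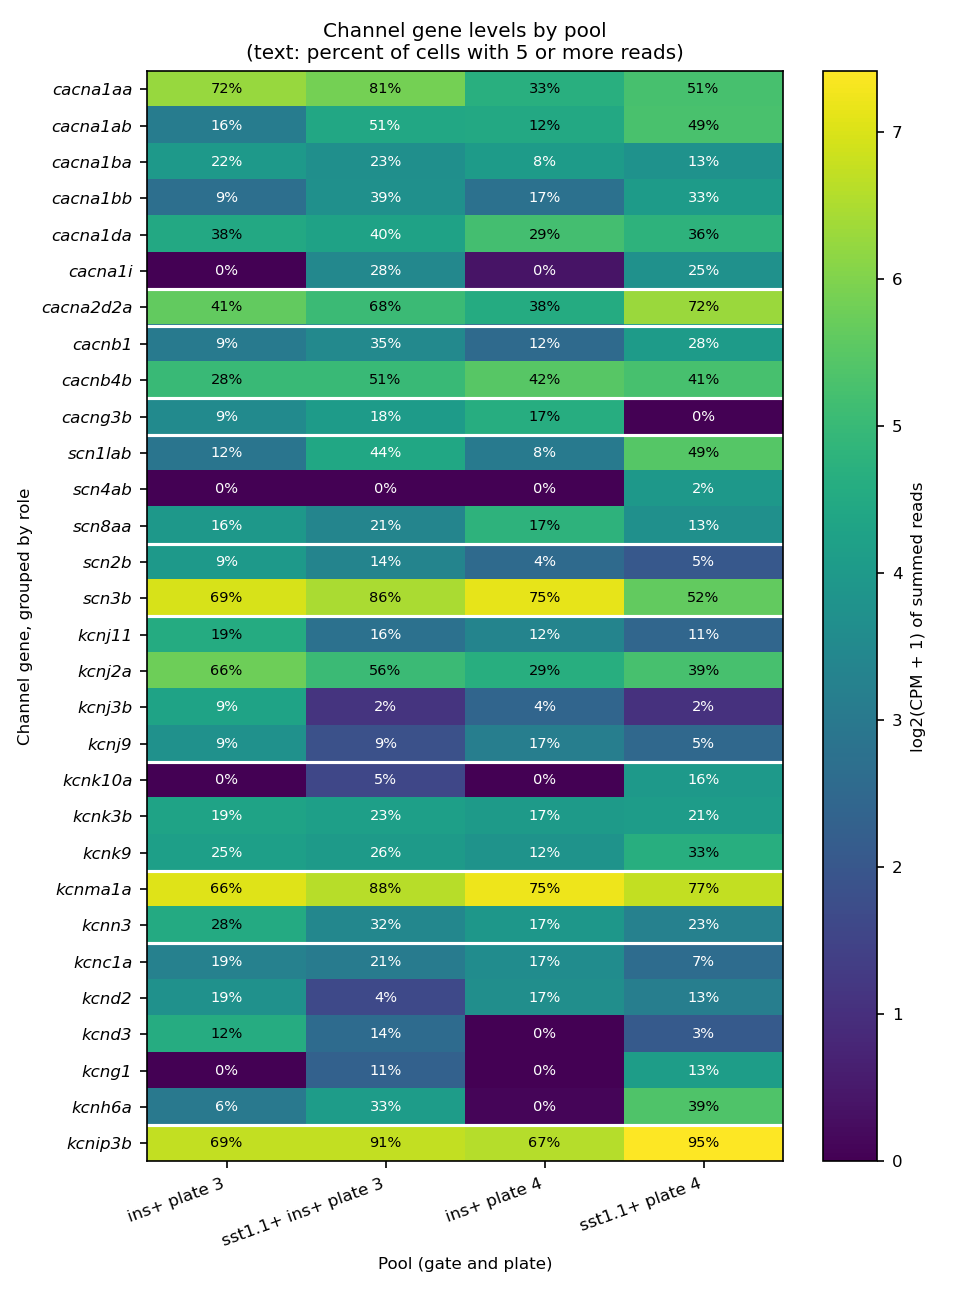
Level of the 30 channel genes (rows, grouped by role with white lines between roles) in the 4 pools (columns), as log2(CPM + 1) of the summed reads by colour; the number in each cell of the map is the percentage of cells with 5 or more reads. A few rows, such as kcnma1a, kcnip3b and scn3b, are bright in every pool, and cacna1i, kcnh6a, kcng1 and kcnk10a are dark in at least 1 ins+ pool.

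Of the 30 members, 6 reached 50 CPM in a pool: kcnma1a, kcnip3b, scn3b, cacna2d2a, cacna1aa and kcnj2a. Every member had cells without a read in every pool. In the ins+ pool of plate 3, 5 members were found in more than 50% of cells, and the other pools had 8 (double-positive), 3 (ins+, plate 4) and 5 (sst1.1+). The median cell had 6 of the 30 genes in ins+ cells of plate 3, 10 in double-positive cells, 5.5 in ins+ cells of plate 4 and 9 in sst1.1+ cells. After thinning these became 4, 5, 4 and 5, with 1 double-positive cell too shallow to enter. The share of the 30 genes found in the median cell, 20%, 33.3%, 18.3% and 30%, was below the share of the 8242 genes that reached 10 CPM in a pool, 24.2%, 42.6%, 26.6% and 33.1%.

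**Figure D2:**
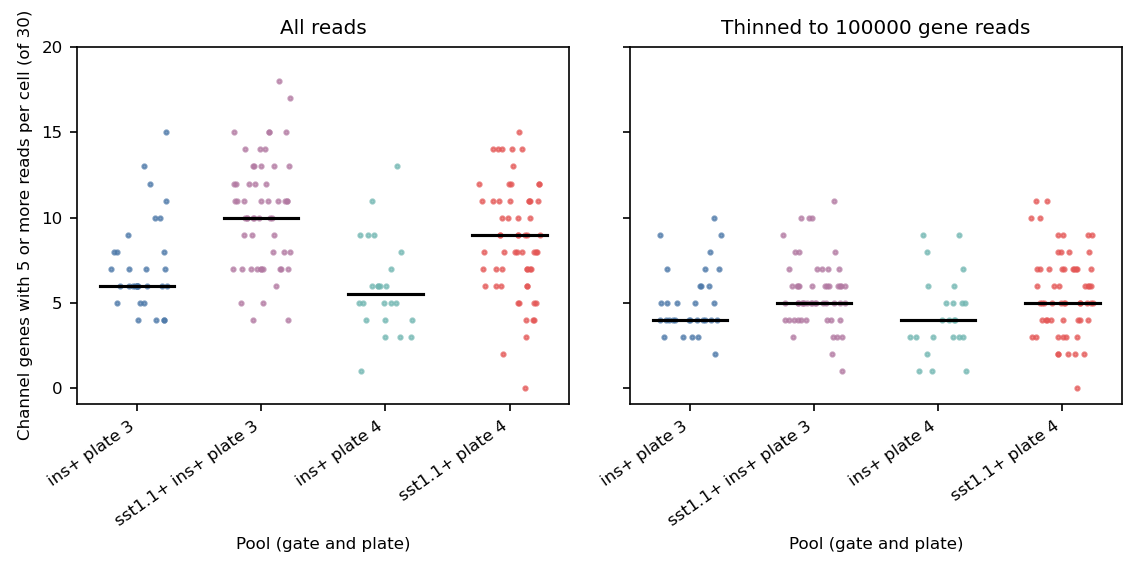
Number of the 30 channel genes with 5 or more reads in each cell (vertical axis) by pool, from all reads (left) and after thinning each cell to 100000 gene reads (right); points are cells and bars are medians. The medians of 6, 10, 5.5 and 9 narrow to 4, 5, 4 and 5 at equal depth.

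Within plate 4, 10 of the 30 members were more than 2-fold higher in sst1.1+ than in ins+ cells and 4 were more than 2-fold lower, on the log2(CPM + 1) scale. Of all 8242 genes, 23.2% were that much higher and 16.5% that much lower (39.7% together). The median log2 ratio was 0.32 over the members and 0.06 over all genes. Within plate 3, 7 members were more than 2-fold higher in double-positive than in ins+ cells and 6 were lower, where 16.4% and 11.3% of all genes were (27.7% together), with a median of -0.19 over members and -0.00 over all genes. The ins+ gate against itself, plate 4 against plate 3, put 2 members higher and 8 lower, where 19.7% and 16.6% of all genes were (36.2% together), with a median of -0.03 over members. A repeated gate thus moved 10 of 30 members past 2-fold, against 14 and 13 in the comparisons between gates, and the repeat shares an ins+ pool with each of them.

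Single cells carried some of these calls. When each pool was taken without its richest cell for the gene in question, 10 of the 14 calls on plate 4 remained, 11 of 13 on plate 3 and 9 of 10 in the repeat. The 6 members higher in both plates' comparisons were cacna1bb, cacna1i, kcng1, kcnh6a, kcnk10a and scn1lab, 60% of those higher on plate 4 and 85.7% of those higher on plate 3. Over all 8242 genes, 574 were higher in both, 30.1% and 42.4% of the 1909 and 1353 higher ones. The only member called lower in both was kcnj3b, 25% and 16.7% of the lower ones, where 260 genes in all were lower in both (19.1% and 27.9%). With 6 and 1 members, these shares are a description. Of the 6, kcnk10a lost its plate 3 call without the richest cell and among cells with the hormones of their gate. With 5 CPM added, kcng1, kcnh6a, kcnk10a and cacna1bb lost their plate 3 calls, and cacna1i and scn1lab kept theirs. cacna1bb lost its plate 3 call with the mean over cells (log2 0.97), without cells rich in other hormones (0.85) and with 5 CPM added (0.72), and with 5 CPM added also on plate 4.

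**Figure D3:**
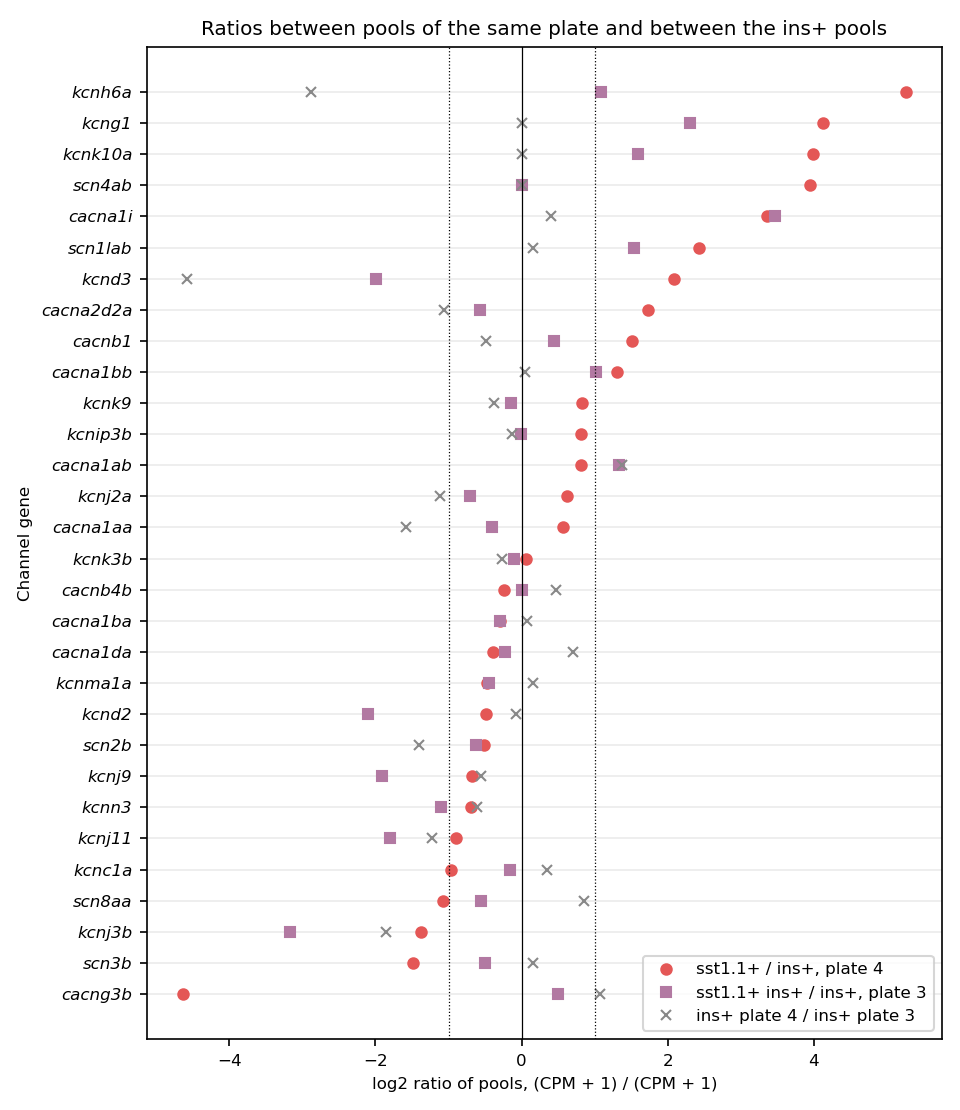
log2 ratio of CPM + 1 for each channel gene in the 3 comparisons: sst1.1+ against ins+ on plate 4 (red circles), double-positive against ins+ on plate 3 (purple squares) and ins+ on plate 4 against ins+ on plate 3 (grey crosses); dotted lines mark 2-fold. kcnh6a reaches 5.26 on plate 4 and 1.09 on plate 3, cacna1i reaches 3.36 and 3.47, and the crosses show that the repeated gate also passes 2-fold for 10 genes.

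Calcium enters through the pore genes. The 6 members summed to 125 CPM in ins+ cells of plate 3, 130 CPM in double-positive cells, 104 CPM in ins+ cells of plate 4 and 143 CPM in sst1.1+ cells. At least 1 of them, taken as 5 or more summed reads, was found in 29 of 32, 57 of 57, 13 of 24 and 54 of 61 cells. The pool sums were close, but the sums of the median cells were further apart, at 83.7, 101, 39.45 and 116 CPM in the same order. Some of the genes differed more than the pool sums: 2 of the 6 passed 2-fold on plate 4 and 3 on plate 3.

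cacna1aa (ENSDARG00000037905) and cacna1ab (ENSDARG00000006923) encode P/Q-type pores, the channels best known for triggering transmitter release. cacna1aa stood at 75.7 CPM (71.1 to 80.5) in ins+ and 56.9 CPM (54.1 to 59.8) in double-positive cells of plate 3, and at 24.7 CPM (22.03 to 27.6) in ins+ and 37.2 CPM (35.2 to 39.3) in sst1.1+ cells of plate 4. Its lowest cell was at 0 in every pool, its median cell at 40.5, 45.5, 0 and 9.17 CPM and its highest at 328, 352, 133 and 229 CPM, in the same order. The level was high in both gates of plate 3 and low in both gates of plate 4: the 2 ins+ pools differed 3.06-fold (2.70 to 3.49), more than either pair of gates within a plate. cacna1ab stood at 7.61 CPM (6.21 to 9.23) and 20.7 CPM (19.002 to 22.4) on plate 3, a 2.72-fold ratio (2.20 to 3.38), and was found in 5 of 32 ins+ and 29 of 57 double-positive cells. The ins+ pools differed as much, 2.82-fold (2.24 to 3.57) with plate 4 the higher. On plate 4 it stood at 21.4 and 38.3 CPM, but 1 ins+ cell held 62.8% of the ins+ reads, and without that cell the ins+ pool was at 8.27 CPM. cacna1ab thus made up 9.14% of the reads of the pair in ins+ and 26.6% in double-positive cells of plate 3, and 46.5% in ins+ (26.8% without the cell) and 50.7% in sst1.1+ cells of plate 4. Zebrafish a and b copies are near relatives, and how reads matching both were counted is not given in the sources used here, so shares within a pair are uncertain to that extent.

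The N-type pores, also presynaptic, were cacna1ba and cacna1bb (ENSDARG00000079295). cacna1bb stood at 5.54 CPM (4.36 to 6.95; 3 of 32 cells) in ins+ and 12.3 CPM (11.03 to 13.7; 22 of 57 cells) in double-positive cells of plate 3. On plate 4 it stood at 5.74 CPM (4.49 to 7.22; 4 of 24 cells) in ins+ and 15.7 CPM (14.4 to 17.1; 20 of 61 cells) in sst1.1+ cells. Its median cell was at 0 CPM in each pool, and its highest cells were at 88.0, 91.9, 56.4 and 187 CPM. Both ins+ pools were low and near each other (ratio 1.03, 0.738 to 1.45), and both pools with sst1.1 reporter were higher, by 2.22-fold (1.72 to 2.89) on plate 3 and 2.74-fold (2.14 to 3.56) on plate 4. After thinning, its cells came to 3.12% and 7.14% on plate 3 and 8.33% and 13.1% on plate 4, a smaller gap at equal depth. The other copy, cacna1ba, stayed between 12.1 and 15.9 CPM in the 4 pools, with 1 cell holding 62.3% and 63.5% of its reads in the ins+ pools.

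cacna1i (ENSDARG00000070522) encodes a T-type pore, which opens at low voltage and is known for pacemaking and burst firing. It had no read in any of the 32 ins+ cells of plate 3 and stood at 10.04 CPM (8.89 to 11.3) in double-positive cells, where 16 of 57 cells had it and the highest reached 79.2 CPM. In ins+ cells of plate 4 it had 4 reads, all in 1 cell (0.319 CPM), and in sst1.1+ cells it stood at 12.6 CPM (11.4 to 13.8), in 15 of 61 cells and up to 155 CPM. The ratio was at least 45.3-fold on plate 3, against a floor of 3 reads over the ins+ pool, and 39.5-fold (15.3 to 146) on plate 4. Both ins+ pools were at or near 0 and both pools with the sst1.1 reporter were not. The median cell was still at 0 CPM in every pool, and thinning left the gene in 8.93% of double-positive and 8.20% of sst1.1+ cells. cacna1da, the L-type pore that carries much of the calcium current in mammalian beta cells, differed less: 21.4 and 18.2 CPM on plate 3 and 35.5 and 26.8 CPM on plate 4, all within 2-fold.

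**Figure D4:**
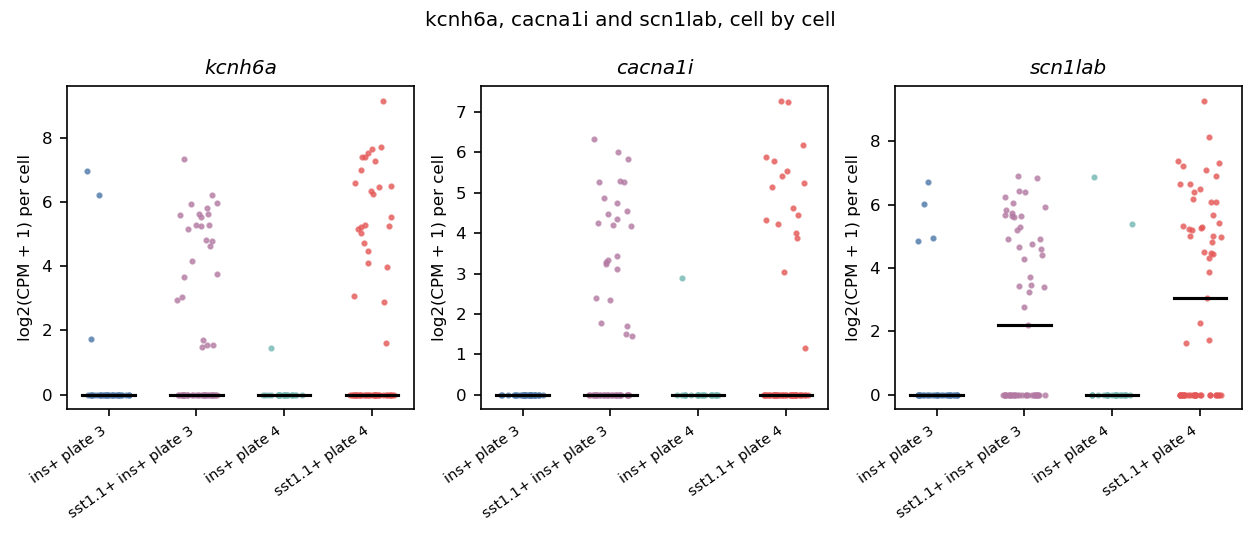
CPM per cell, as log2(CPM + 1), of kcnh6a, cacna1i and scn1lab in the 4 pools; each point is 1 cell and bars are medians. Few or no ins+ cells stand above 0 for these genes on either plate, while 24 of 61 sst1.1+ cells held 5 or more reads of kcnh6a, 15 of cacna1i and 30 of scn1lab.

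Auxiliary subunits carry the pore to the membrane and tune it. cacna2d2a (ENSDARG00000039182), an alpha2delta subunit, stood at 48.9 CPM (45.2 to 52.7) in ins+ and 32.5 CPM (30.4 to 34.7) in double-positive cells of plate 3, and at 22.8 CPM (20.2 to 25.6) in ins+ and 77.9 CPM (74.9 to 80.9) in sst1.1+ cells of plate 4. Its median cell was at 0, 20.97, 0 and 45.1 CPM and its highest at 434, 138, 146 and 353 CPM. It was found in 13 of 32, 39 of 57, 9 of 24 and 44 of 61 cells. After thinning, the shares were 25%, 28.6%, 20.8% and 49.2%, in the same order. The sst1.1+ pool was the highest of the 4, 3.42-fold (3.02 to 3.87) above the ins+ pool of its plate, but the ins+ pools also differed 2.14-fold (1.86 to 2.47), and on plate 3 the double-positive pool was the lower one, at a ratio of 0.666 (0.602 to 0.738). Against the ins+ cells of both plates together the log2 ratio of sst1.1+ cells was 1.08, in place of 1.73. cacnb1 (ENSDARG00000002167), a cytoplasmic beta subunit best known from skeletal muscle, stood at 7.32 and 10.3 CPM on plate 3 and at 4.94 CPM (3.79 to 6.33; 3 of 24 cells) and 15.9 CPM (14.6 to 17.3; 17 of 61 cells) on plate 4, a ratio of 3.22-fold (2.47 to 4.26), with 0.675 (0.483 to 0.937) between the ins+ pools of plate 4 and plate 3. One ins+ cell held 71.0% of its plate 4 ins+ reads, and the median cell was at 0 CPM in each pool. The other beta subunit, cacnb4b, was at 31.3, 31.4, 43.7 and 36.97 CPM (ins+ and double-positive on plate 3, ins+ and sst1.1+ on plate 4) and did not pass 2-fold anywhere.

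cacng3b belongs to the gamma family, whose mammalian member CACNG3 is known as an AMPA receptor partner. It had no read in 61 sst1.1+ cells and stood at 23.8 CPM in the ins+ cells of plate 4, where 1 of 24 cells held 67.9% of the reads. The sst1.1+ pool was at least 271-fold lower, with the 3-read floor taken over that pool. On plate 3 it was in 3 of 32 ins+ cells (10.8 CPM) and 10 of 57 double-positive cells (15.7 CPM), so cells of a gate with the sst1.1 reporter did carry it there. The ins+ pools differed 2.21-fold (1.81 to 2.71).

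Sodium channels drive the upstroke of the action potential. scn3b (ENSDARG00000062359), a beta subunit that modulates gating of the pore, stood at 125 CPM (119 to 131) in ins+ and 87.6 CPM (84.2 to 91.2) in double-positive cells of plate 3, and at 139 CPM (133 to 146) in ins+ and 48.9 CPM (46.6 to 51.3) in sst1.1+ cells of plate 4. The median cells were at 88.7, 65.7, 99.7 and 17.1 CPM and its highest at 545, 342, 464 and 252 CPM. Cells with the gene numbered 22 of 32, 49 of 57, 18 of 24 and 32 of 61. The ins+ pools were the highest and close to each other (ratio 1.11, 1.04 to 1.19), the double-positive pool was 1.43-fold lower (1.34 to 1.52) and the sst1.1+ pool 2.85-fold lower (2.66 to 3.05) than the ins+ pool of its plate. After thinning, 62.5% of ins+ cells on each plate, 69.6% of double-positive and 36.1% of sst1.1+ cells had it. Among the 4 members past 2-fold lower on plate 4 it was the only one found in at least 20% of ins+ cells. Cells of the 4 pools overlapped in their values.

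scn1lab (ENSDARG00000062744), a brain-type sodium pore gene whose loss is used in zebrafish as a seizure model, showed the opposite order. It stood at 6.36 CPM (5.08 to 7.85) in ins+ and 20.3 CPM (18.7 to 22.1) in double-positive cells of plate 3, and at 7.17 CPM (5.77 to 8.81) in ins+ and 42.9 CPM (40.8 to 45.2) in sst1.1+ cells of plate 4. Median cells were at 0, 3.61, 0 and 7.34 CPM and its highest at 104, 118, 117 and 621 CPM. It was found in 4 of 32 and 2 of 24 ins+ cells, against 25 of 57 double-positive and 30 of 61 sst1.1+ cells. The ratios were 3.19-fold (2.54 to 4.06) on plate 3 and 5.99-fold (4.84 to 7.49) on plate 4, with 1.13-fold (0.830 to 1.53) between the ins+ pools. The highest sst1.1+ cell held 20.9% of that pool's reads and 1 ins+ cell 74.4% of those of plate 4; without both, the plate 4 log2 ratio was 3.602 in place of 2.43.

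The 3 sodium pore members summed to 20.7, 29.7, 33.9 and 69.7 CPM and the 2 beta members to 140, 96.9, 144 and 52.1 CPM, in the order ins+ and double-positive on plate 3, ins+ and sst1.1+ on plate 4. The pore sum was highest and the beta sum lowest in sst1.1+ cells. Part of the pore sum there was 1 cell: scn4ab, the skeletal muscle sodium pore, had 496 reads, all in 1 sst1.1+ cell (1037 CPM in the cell, 14.5 CPM in the pool), and none in any other kept cell. That cell had 142710 CPM of sst1.1 and no read of the 10 muscle markers. scn8aa, another neuronal pore gene, was at 14.3, 9.42, 26.8 and 12.2 CPM. Its 2-fold lower level in sst1.1+ cells rested on 1 ins+ cell with 60.1% of the reads, and without that cell the ins+ pool of plate 4 was at 11.2 CPM. Without the top cell of each of the plate 4 pools, the log2 ratio went from -1.07 to -0.25. scn2b, the other beta member, stood at 14.8, 9.24, 4.94 and 3.16 CPM, in 3 of 32, 8 of 57, 1 of 24 and 3 of 61 cells, and the ins+ pools differed 2.99-fold (2.24 to 4.05), more than the gates within a plate.

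Potassium pore members, 14 genes, summed to 348 CPM in ins+ and 218 CPM in double-positive cells of plate 3, and to 259 CPM in ins+ and 291 CPM in sst1.1+ cells of plate 4. kcnma1a (ENSDARG00000079840), the large-conductance channel opened by calcium and voltage together, stood at 132 CPM (126 to 139), 96.8 CPM (93.1 to 101), 147 CPM (141 to 154) and 106 CPM (103 to 109), in the same order. By cell, the medians were 75.2, 78.1, 108 and 97.6 CPM, the highest 597, 313, 695 and 368 CPM, and 21 of 32, 50 of 57, 18 of 24 and 47 of 61 cells had it. Pool levels were lower by 1.37-fold (1.29 to 1.45) in double-positive and by 1.39-fold (1.31 to 1.47) in sst1.1+ cells than in ins+ cells of the same plate, within 2-fold, while the median cells of plate 3 were at nearly the same level. The ins+ sums leaned on single cells, which held 21.96% and 19.8% of the reads.

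kcnn3 (ENSDARG00000019753), a small-conductance channel opened by calcium alone, stood at 22.2 CPM (19.8 to 24.9; 9 of 32 cells) in ins+ and 9.86 CPM (8.72 to 11.1; 18 of 57 cells) in double-positive cells of plate 3, and at 14.3 CPM (4 of 24 cells) and 8.48 CPM (14 of 61 cells) on plate 4. Its median cell was at 0 CPM in each pool and its highest at 342, 83.8, 119 and 69.4 CPM. After thinning, 12.5% of ins+ and 3.57% of double-positive cells of plate 3 had it, and 12.5% of ins+ and 8.20% of sst1.1+ cells of plate 4. The double-positive pool was 2.26-fold lower (1.91 to 2.67), but 1 ins+ cell held 44.2% of the reads, and the log2 ratio without the top cells was -0.56 in place of -1.10. The ins+ pools differed 1.56-fold (1.29 to 1.89).

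**Figure D5:**
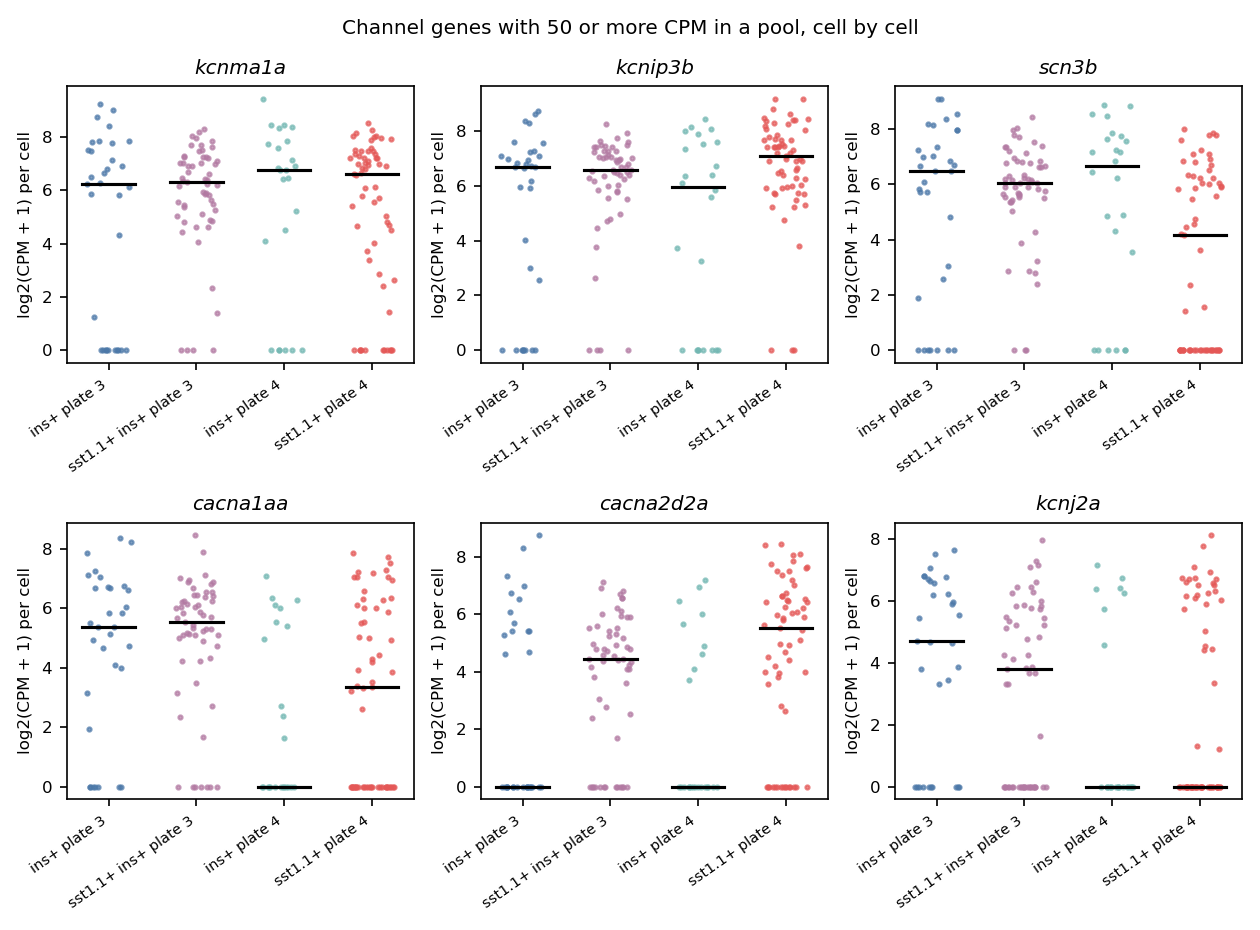
CPM per cell, as log2(CPM + 1), of the 6 channel genes that reached 50 CPM in a pool; each point is 1 cell and bars are medians. Cells of all pools overlap, the median bar of scn3b is lowest in sst1.1+ cells (17.1 CPM), and that of cacna1aa lies at 0 in ins+ cells of plate 4 but at 40.5 CPM in ins+ cells of plate 3.

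kcnip3b (ENSDARG00000017880) encodes a calcium-binding protein that assembles with A-type potassium pores. It stood at 106 CPM (100 to 112) and 105 CPM (101 to 109) in ins+ and double-positive cells of plate 3, and at 96.2 CPM (90.9 to 102) and 170 CPM (165 to 174) in ins+ and sst1.1+ cells of plate 4. The pools' median cells were at 103, 95.4, 62.2 and 134 CPM and its highest at 423, 305, 344 and 582 CPM. Cells with the gene numbered 22 of 32, 52 of 57, 16 of 24 and 58 of 61. The other pools lay together and the sst1.1+ pool above them, 1.76-fold (1.66 to 1.88) over its ins+ pool and so within 2-fold. The A-type pores themselves were sparse: kcnd2 stood at 12.3 and 2.12 CPM on plate 3 and 11.7 and 8.07 CPM on plate 4. kcnd3 stood at 22.99 and 5.04 CPM on plate 3, with 59.8% of the ins+ reads in 1 cell, and on plate 4 it had no read in ins+ cells and 3.25 CPM in sst1.1+ cells, 88.3% of it in 1 cell. In double-positive against ins+ cells of plate 3 the ratio was 0.172 (0.125 to 0.233) for kcnd2, with 2 of 57 against 6 of 32 cells. For kcnd3 it was 0.219 (0.178 to 0.269), with 8 of 57 against 4 of 32 cells from all reads. After thinning, 3.57% of double-positive and 9.38% of ins+ cells of plate 3 had kcnd3. Between the ins+ pools kcnd3 was 96.2-fold lower on plate 4 with that pool set at the floor of 3 reads (lower 95% limit 77.7-fold). Against the ins+ cells of both plates together its log2 ratio in sst1.1+ cells turned from 2.09 to -1.61.

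kcnh6a (ENSDARG00000001803), of the ether-a-go-go-related family that repolarises heart and endocrine cells, had the largest log2 ratio of all 30 members on plate 4. It stood at 6.95 CPM (5.61 to 8.50) in ins+ and 15.96 CPM (14.5 to 17.5) in double-positive cells of plate 3. On plate 4 it had 1 read in the whole ins+ pool (0.0797 CPM, 0.00202 to 0.444) and stood at 40.5 CPM (38.3 to 42.6) in sst1.1+ cells. It was found in 2 of 32 ins+, 19 of 57 double-positive, 0 of 24 ins+ and 24 of 61 sst1.1+ cells, with highest cells at 125, 160, 1.74 and 571 CPM and the median cell at 0 CPM in each pool. The ratio on plate 4 was 508-fold (91.0 to 20068) with that 1 read, and 169-fold with the ins+ pool set at the floor of 3 reads. On plate 3 it was 2.30-fold (1.83 to 2.90), and with 5 CPM added it was no longer past 2-fold (log2 0.81). The ins+ pools themselves differed 87.2-fold (15.3 to 3480), with plate 3 the higher. On plate 3, 1 ins+ cell held 67.0% of the reads, and without it that pool was at 2.38 CPM; the other ins+ cell with 5 or more reads had 60024.8 CPM of gcga, the glucagon gene. After thinning, 12.5% of double-positive and 22.95% of sst1.1+ cells had kcnh6a.

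kcng1 and kcnk10a had no read in the ins+ cells of either plate, and are named after their values were seen. kcng1, a silent subunit that modifies other pores, stood at 3.94 CPM in 6 of 57 double-positive cells and at 16.5 CPM in 8 of 61 sst1.1+ cells, at least 17.8-fold and 68.9-fold above the floor of 3 reads over the ins+ pool. kcnk10a, a leak channel sensitive to stretch and lipids, stood at 2.01 CPM in 3 of 57 and 14.9 CPM in 10 of 61 cells, at least 9.06-fold and 62.5-fold above the floor. One double-positive cell held 67.3% of its reads there; without it that pool was at 0.671 CPM and the log2 ratio on plate 3 was 0.74 in place of 1.59. With 32 and 24 ins+ cells, these absences are limits on rare cells as much as on levels. Of the other leak channels, kcnk3b (15.4 to 18.6 CPM) and kcnk9 (13.1 to 24.1 CPM), both acid-sensitive, stayed within 2-fold in all 3 comparisons. kcnc1a (5.18 to 11.1 CPM), a fast delayed rectifier, was not called either, but on plate 4 only because 1 CPM was added. Its log2 ratio there was -0.97, and -1.11 without the top cells. Without the added CPM it was 2.14-fold lower (1.70 to 2.69) in sst1.1+ cells.

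Inward rectifiers hold the resting voltage. kcnj2a (ENSDARG00000019418), a strong rectifier, stood at 53.4 CPM (49.5 to 57.4) and 32.5 CPM (30.4 to 34.7) on plate 3 and at 24.1 CPM (21.4 to 26.9) and 37.6 CPM (35.6 to 39.7) on plate 4. Its median cell was at 25.05, 13.01, 0 and 0 CPM and its highest at 199, 250, 141 and 278.5 CPM, with the gene in 21 of 32, 32 of 57, 7 of 24 and 24 of 61 cells. The ins+ pool was the higher one on plate 3 and the lower one on plate 4, and the ins+ pools differed from each other 2.22-fold (1.94 to 2.54), more than the gates did.

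kcnj11, the pore of the ATP-sensitive channel, stood at 22.7 CPM (20.2 to 25.4; 6 of 32 cells) in ins+ and 5.77 CPM (4.91 to 6.74; 9 of 57 cells) in double-positive cells of plate 3, and at 9.16 CPM (7.56 to 10.999; 3 of 24 cells) in ins+ and 4.45 CPM (3.77 to 5.21; 7 of 61 cells) in sst1.1+ cells of plate 4. It was thus found in few cells of any gate, ins+ cells included. The double-positive pool was 3.93-fold lower (3.24 to 4.79), with 34.5% of the ins+ reads in 1 cell, and the ins+ pools differed 2.48-fold (1.99 to 3.10). On plate 4 kcnj11 was 2.06-fold lower (1.60 to 2.64) in sst1.1+ than in ins+ cells. With 1 CPM added it was not called there (log2 -0.90), and without the top cells the log2 ratio was -0.32. Its partner abcc8, the sulfonylurea receptor of the same channel and no member by name, was found more widely: at 41.6 and 72.3 CPM in 13 of 32 and 45 of 57 cells of plate 3, and at 112 and 90.03 CPM in 16 of 24 and 41 of 61 cells of plate 4. Cells with both genes numbered 4, 7, 3 and 7.

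The G-protein-gated rectifiers, which open when inhibitory receptors are active, were rare. kcnj3b stood at 18.6 CPM in ins+ cells of plate 3, from 3 of 32 cells, and at 1.17, 4.38 and 1.08 CPM in the other pools, each with 1 cell of 5 or more reads, which held 100%, 100% and 78.4% of the reads. Its lower level in sst1.1+ cells (log2 -1.37) became 0.31 without the top cells and 1.08 among cells with the hormones of their gate, and the ins+ pools differed 4.23-fold (3.15 to 5.78). kcnj9 stood at 12.3, 2.56, 8.05 and 4.65 CPM in 3 to 5 cells of each pool.

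The 6 members higher in both gates with the sst1.1 reporter were set against the cells, as a group chosen after its values were seen. None of the 6 reached 10 CPM in an ins+ pool, so each became a member only through pools with the reporter. The split of cells between gates follows from that choice, and the shares below are a description. At least 1 of them was found in 9 of 32 (28.1%) and 5 of 24 (20.8%) ins+ cells, in 47 of 57 double-positive cells (82.5%, 70.1 to 91.3) and in 53 of 61 sst1.1+ cells (86.9%, 75.8 to 94.2). At least 2 of them were in 0, 1, 26 and 33 cells. After thinning, the shares with at least 1 were 12.5%, 8.33%, 51.8% and 60.7%, lower in each pool and in the same order of gates. The ins+ cells that held one of them carried ins at 172152 CPM or more, and 1 of those 15 gene-and-cell pairs was in a cell with over 5% of its reads in somatostatin genes. All 6 are sparse genes, each in at most 30 of 61 cells.

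Double-positive and sst1.1+ cells came from different plates, so their levels stand side by side without a comparison. For kcnh6a these were 15.96 and 40.5 CPM, for scn1lab 20.3 and 42.9 CPM, for cacna2d2a 32.5 and 77.9 CPM, for kcng1 3.94 and 16.5 CPM and for kcnk10a 2.01 and 14.9 CPM. For cacna1i they were 10.04 and 12.6 CPM and for cacna1bb 12.3 and 15.7 CPM. For scn3b they were 87.6 and 48.9 CPM, and for cacna1aa 56.9 and 37.2 CPM.

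The genes that act with these channels were followed in lists of named genes, counting those with 10 CPM or more in a pool. The counts stand beside the shares over all genes given above, and beside the ins+ gate against itself. In that repeat, 1 gene of ATP and glucose sensing was higher and 1 lower, 1 and 1 of the sodium-potassium ATPases, 4 and 1 of calcium stores and pumps, 2 and 2 of calcium sensors, 2 and 5 of other channels and 2 and 1 of channel partners. For the other channels the repeat thus moved 7 of 11, more than either comparison of gates. Of 10 genes of ATP and glucose sensing, none was more than 2-fold higher and 2 were lower in sst1.1+ than in ins+ cells: pcxb, a pyruvate carboxylase, at 59.7 against 502 CPM, and g6pcb, a glucose-6-phosphatase, at 91.2 against 284 CPM. Between double-positive and ins+ cells none of the 10 passed 2-fold. Of 6 sodium-potassium ATPase genes, which restore the gradients the channels spend, 3 were higher and 1 lower on plate 4, and 2 higher and 1 lower on plate 3. The beta subunit gene atp1b1a was higher on both, at 285 against 87.2 CPM and 205 against 73.5 CPM. So was the alpha subunit gene atp1a1a.1, at 65.6 against 13.5 CPM on plate 4 and 39.9 against 15.2 CPM on plate 3.

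Of 14 genes for calcium stores and pumps, 3 were higher and 4 lower in sst1.1+ cells, among the lower ones mcu, the mitochondrial calcium uniporter (21.7 against 56.1 CPM), and stim1a, the sensor of store depletion (19.2 against 52.4 CPM). On plate 3, 2 were higher and 1 lower. There mcu (18.4 against 28.6 CPM) and stim1a (31.6 against 52.6 CPM) stayed within 2-fold. Between the ins+ pools, plate 4 against plate 3, the ratio was 1.96 (1.73 to 2.23) for mcu and 0.995 for stim1a. Of 15 calcium sensors, 3 were higher and 2 lower on plate 4, and 1 was higher and 1 lower on plate 3. The lower ones on plate 4 were the calcium-calmodulin kinase genes camk2d1 (10.1 against 59.8 CPM) and camk2g1 (77.6 against 166 CPM). For camk2d1, 1 cell held 55.2% of the sst1.1+ reads and 1 cell 38.1% of the ins+ reads there. The ins+ pools, plate 4 against plate 3, stood at a ratio of 1.91 for camk2d1 and 0.990 for camk2g1. Of 11 other cation and anion channels, 3 were higher and 2 lower on plate 4. On plate 3 none was higher and 3 were lower, with the sodium leak channel gene nalcn at 103 CPM in double-positive and 215 CPM in ins+ cells, while ins+ cells of plate 4 stood at 112 CPM. Of 13 channel partners, 5 were higher and 2 lower on plate 4, with ank2b, an ankyrin that anchors channels, at 59.204 against 16.7 CPM, and 2 were higher and none lower on plate 3.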

How the data were processed

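The data are Smart-Seq2 reads of 186 sorted single cells in 4 pools of gate and plate. The values used are raw counts per gene and cell, deposited by the authors in 1 table. The submitters' processing notes name Trim Galore, HISAT2, featureCounts and the GRCz11 assembly. Their versions, the strand setting and how reads matching several genes were treated were not given in the sources used here. Reads of overlapping or antisense genes, and of near-identical copies, can therefore not be told apart. No column was left unused (0). ERCC spike-in reads, 5.61% of all reads, stayed out of the totals.

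Cells with at least 500 detected genes and 50000 gene reads were kept. Cells were sorted singly, and no doublet caller was run. Counts were summed per pool and divided by the pool's gene reads to give CPM. A gene was called different above 2-fold on log2(CPM + 1). With 1 pool per group there is no test and no p-value. CPM carry exact Poisson intervals, ratios exact conditional binomial intervals and shares of cells Clopper-Pearson intervals, at 95% (SciPy 1.17.1, Python 3.11.15). Where a pool had 0 reads, 3 reads in that pool served as the floor. TMM factors (edgeR 4.0.16) were an alternative. The calculation was tested on simulated pool totals drawn as independent Poisson counts, without cells. That test does not cover reads that gather in single cells.

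Described singly are the members with 50 CPM or more in a pool, and, in each comparison within a plate, up to 10 members per direction past 2-fold with 10 CPM and 5 or more reads in at least 20% of cells of the higher pool; other members named were chosen after their values were seen. In the lists of acting genes, abcc8 and up to 4 genes per list past 2-fold with 50 CPM are named. The members and lists were chosen with earlier results of these data known. Of 281 listed symbols, 247 matched the table directly, 14 by gene ID and 4 by letter case, and 16 were not found. Transcript lengths, coordinates and sequences were not used here, so levels are not compared between genes.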

Additional observations from a re-analysis of the deposited data

How the results depend on the processing

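No paired analysis was possible because each gate on each plate is 1 pool, and cell numbers on a plate pair nothing. On plate 4, calls of 3 members turned or went to 0: kcnj3b (log2 -1.37) was 0.31 without the top cells and 1.08 among cells with the hormones of their gate, kcnd3 (2.09) was -1.61 against ins+ cells of both plates, and scn4ab (3.95) was 0 without its 1 cell. No call turned on plate 3 or in the repeat under the alternatives run. With 5 CPM added in place of 1, members past 2-fold were 2 lower on plate 4, 3 higher on plate 3, and 1 higher and 5 lower in the ins+ repeat. With members taken from 20 CPM, 4 were higher on plate 4, and 3 higher and 3 lower on plate 3. With members taken from 1 CPM, 20 were higher and 10 lower on plate 4, 18 and 11 on plate 3, and 12 and 19 in the repeat. Against ins+ cells of both plates together, 7 members were lower in sst1.1+ cells. The repeat had 1 member higher with TMM factors, with the mean over cells, and without each pool's top cell. The causes were not tested, beyond the added constant, the member threshold and the cells left out that define each alternative. Leaving the hormone genes out of the totals moved the median of all genes on plate 4 from 0.06 to -0.10 log2 and gave 40 members; without the top cell of each pool there were 24. Keeping only cells with the hormones of their gate, an alternative chosen after seeing the data, gave 31 members and 11 higher on plate 4. Of the other recomputed values, 59 counts stayed within 1.5 times. For members described singly, 280 log2 ratios were unchanged or lay within the counting interval of the main ratio, and 97 lay outside it. That interval is for the ratio without added CPM, so for genes near 0 in a pool, such as cacna1i, the main log2 ratio could itself lie outside it. The 97 are therefore no measure of how far ratios moved. Shares of cells stayed within their intervals in 71 cases and left them in 33, of which 29 were after thinning.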

Other observations

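The zebrafish table also lists 35 channel rows under capital symbols, which the name rule, in lower case, did not take. Of these, 5 reached 10 CPM in a pool, and they are named here after their values were seen. The row labelled CACNA2D2 (3 of 3), an alpha2delta subunit, stood at 71.3 CPM in ins+ and 93.9 CPM in double-positive cells of plate 3. On plate 4 it stood at 73.4 CPM in ins+ and 116 CPM in sst1.1+ cells. The row labelled KCNIP4 (2 of 2), of the same family of calcium-binding partners as kcnip3b, stood at 19.1, 33.8, 35.1 and 71.9 CPM in the same order. One cell held 66.4% of its ins+ reads of plate 4. KCNJ6, a G-protein-gated rectifier, stood at 7.54, 3.25, 25.7 and 19.01 CPM. KCNN2, a small-conductance calcium-activated channel, stood at 5.03, 9.35, 14.02 and 6.17 CPM, with 82.4% of the ins+ reads of plate 4, the only pool past 10 CPM, in 1 cell. KCNA3, a voltage-gated potassium pore, stood at 2.07 and 5.11 CPM on plate 3 and had 0 reads in ins+ and 10.6 CPM in sst1.1+ cells of plate 4. With these rows, 35 channel genes would have met the level.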
